A study of Mus musculus with 21 samples.

Results

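Late after stimulation, bone marrow-derived dendritic cells of 2 genotypes on the C57Bl6 strain, wild type (WT) and crel-/-relb-/-, were compared. The comparison takes 8 of the 21 arrays of the study, chosen by their labels: 1 array of each genotype after 8 or 24 h with CpG and after 8 or 24 h with Pam3CSK4, compared within each of these 4 conditions. CpG is a DNA ligand of the Toll-like receptor TLR9, and Pam3CSK4 is a lipopeptide ligand of TLR2 with TLR1. The other arrays are the 6 of the same 2 genotypes before stimulation or after 1 h, which are compared once below, and 7 of relb-/- cells, whose 4 late arrays serve as the second reference. Each genotype in each condition was measured on 1 Illumina bead array, and the labels do not say whether arrays came from separate cultures or animals. The p-values below therefore measure how constant a difference was over the conditions. The number of arrays limits their precision. The labels give crel-/-relb-/- as the whole genotype and name no Cre, promoter or further allele.

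c-Rel, encoded by Rel, and RelB, encoded by Relb, are subunits of the NF-kB transcription factors. In resting cells NF-kB dimers are held by inhibitors, and Toll-like receptors release them through a kinase that marks the inhibitors for destruction. c-Rel works mainly in this canonical pathway and RelB mainly in the non-canonical one, where the precursor p100 is cut to p52. In dendritic cells both are known for the late programme called maturation, in which the cells raise costimulatory molecules, cytokines and the cytoskeletal proteins of their long processes.

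Values are the authors' deposited normalized probe intensities. A difference is the log2 intensity in crel-/-relb-/- cells minus that in WT cells of the same condition, averaged over 4 conditions (n = 4 array pairs). It is given ± the moderated standard error (SE) of limma, which draws on the spread of other genes besides that of the 4 pairs. Differences of the other comparisons carry the moderated SE of their own fits. In every list of 4 values below the order is CpG 8 h, CpG 24 h, Pam3CSK4 8 h and Pam3CSK4 24 h. The median of all intensities was 47.3. No background was subtracted here, and whether the deposited values had it subtracted is not stated, so differences of genes near that value may be understated. Of 16593 named genes, 10587 were bright enough to be tested with limma, and a gene was called at a Benjamini-Hochberg adjusted p under 0.05 over these genes. The crel-/-relb-/- array at CpG 24 h stood apart: its residual SD over all genes was 0.164 on the log2 scale, against 0.0933 to 0.127 on the other late arrays. Many results are given with this array and without it, which also leaves out its WT partner. The other results of the late comparison include it. Of the markers of the labelled cell type, the MHC class II genes Cd74 and H2-Ab1 were at 7143 to 10252 and 5072 to 5540 in WT and 5864 to 11304 and 4316 to 6882 in crel-/-relb-/- cells, and Itgax (CD11c) was at 198 to 261 and 207 to 322. Flt3, Xcr1 and Cd209a, 3 of the 16 dendritic cell markers with a probe, were at or below the median on all 8 arrays.

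The targeted genes were checked first. The Rel probe read 93.4, 61.1, 107 and 88.1 in WT and 37.2, 45.5, 35.4 and 35.6 in crel-/-relb-/- cells, where every array lay below the median of all values. It fell by 1.16 on the log2 scale (log2 difference -1.16 ± 0.15, adjusted p = 0.00181), while the relb-/- cells read 109, 101, 107 and 107. The Relb probe read 236, 228, 235 and 267 in WT and 179.7, 99.6, 170.4 and 97.8 in crel-/-relb-/- cells (log2 difference -0.87 ± 0.17, adjusted p = 0.0194), so a signal above the median remained, as it did in relb-/- cells at 153, 129, 131 and 109.7. Without CpG 24 h the Relb difference was -0.77 (adjusted p = 0.056). The sources used here do not give where the probes lie relative to the deleted parts.

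Over all genes, 457 differed between the genotypes late after stimulation (4.32% of those tested), 204 higher (1.93%) and 253 lower (2.39%) in crel-/-relb-/- cells. The sign was the same in 4 of 4 conditions for 202 of the higher and 250 of the lower genes. A change of at least 2-fold was seen in 52 called genes (0.491%), 16 higher and 36 lower. Without the CpG 24 h pair 551 genes were called (5.2%), 247 higher (2.33%) and 304 lower (2.87%), and 381 genes were called both with and without it in the same direction. Leaving out another pair lowered the count to 182 without CpG 8 h, 187 without Pam3CSK4 8 h and 144 without Pam3CSK4 24 h, and 108 genes were called in all 4 of these repeats. Within single conditions, genes at least 2-fold different numbered 48 higher and 49 lower at CpG 8 h, 138 and 103 at CpG 24 h, 33 and 87 at Pam3CSK4 8 h, and 27 and 74 at Pam3CSK4 24 h.

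**Figure D1:**
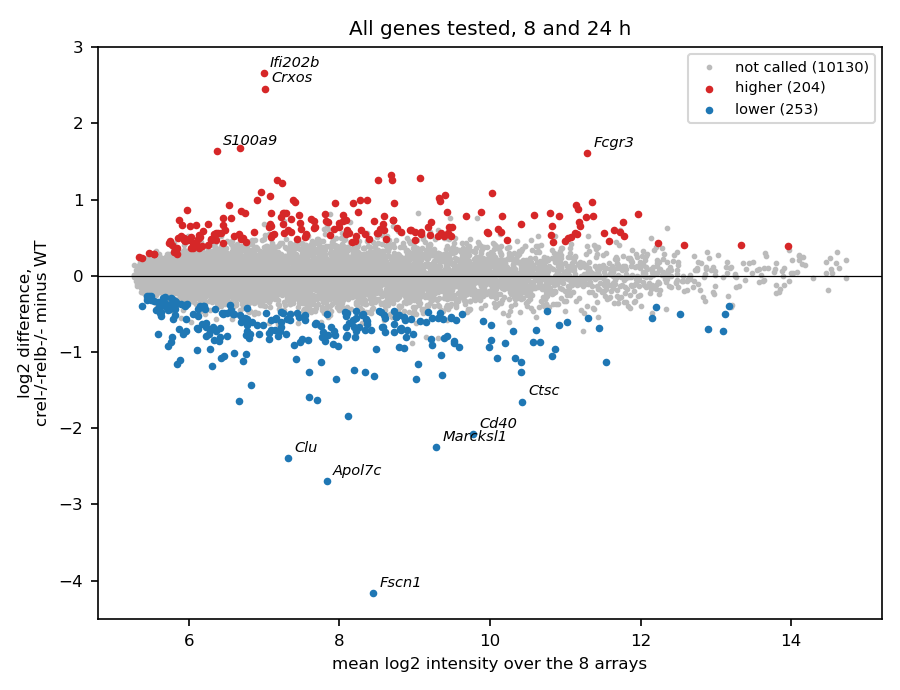
Each point is 1 of 10587 genes, with its mean log2 intensity over the 8 arrays on the x axis and the log2 difference of crel-/-relb-/- minus WT cells, averaged over 4 conditions, on the y axis. Red points were called higher (204) and blue points lower (253), and Fscn1 lies lowest at -4.16.

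Maturation genes were among those that fell most in crel-/-relb-/- cells, and the first of them was Fscn1, which encodes fascin, the actin-bundling protein of dendritic cell processes. Fscn1 intensity was 2465, 1553, 1469 and 858 in WT cells and 132, 74.7, 77.9 and 61 in crel-/-relb-/- cells. Every crel-/-relb-/- value lay far below every WT value, a 17.9-fold lower mean (log2 difference -4.16 ± 0.13, adjusted p = 3.79e-08), and without CpG 24 h the difference was -4.09 (adjusted p = 1.1e-06). Apol7c, of the apolipoprotein L family, read 788, 586, 681 and 356 in WT and 87.9, 71.3, 121 and 83.3 in crel-/-relb-/- cells. The groups did not overlap, and Apol7c fell 6.49-fold (log2 difference -2.70 ± 0.17, adjusted p = 1.9e-05). Marcksl1, a membrane and actin regulator related to MARCKS, read 1914, 838, 1730 and 1233 against 426, 229, 261 and 261. It was lower on all 4 crel-/-relb-/- arrays than on any WT array (log2 difference -2.25 ± 0.14, adjusted p = 1.9e-05). With the mean of the Marcksl1 probes in place of the brightest the log2 difference was -1.792.

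The costimulatory receptor gene Cd40, whose product binds CD40 ligand on helper T cells, was at 4194, 1281, 2682 and 734 in WT and 1479, 349, 423 and 154 in crel-/-relb-/- cells. Within each condition the crel-/-relb-/- array was lower, but the crel-/-relb-/- value at CpG 8 h exceeded both WT values at 24 h, and the gene was lower at 24 h than at 8 h in both genotypes. The mean difference was -2.07 ± 0.17 (adjusted p = 9.13e-05), and -2.14 (adjusted p = 0.000576) without CpG 24 h. Of the other 3 Cd40 probes, those at -1.67 and -0.69 were also called and a dim one at -0.21 was not. Cd86, a ligand of CD28 on T cells, fell less, from 2579.9, 1198, 1470.3 and 801 in WT to 1359.8, 887, 767 and 382 (log2 difference -0.84 ± 0.13, adjusted p = 0.00457), and lost its call in 1 of the 4 repeats that leave out a condition. One of its 3 probes, at 0.36, was not called. Cd80, the second CD28 ligand, and Cd83, a maturation marker, were not called at -0.31 ± 0.15 (adjusted p = 0.298) and -0.18 ± 0.12 (adjusted p = 0.49).

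**Figure D2:**
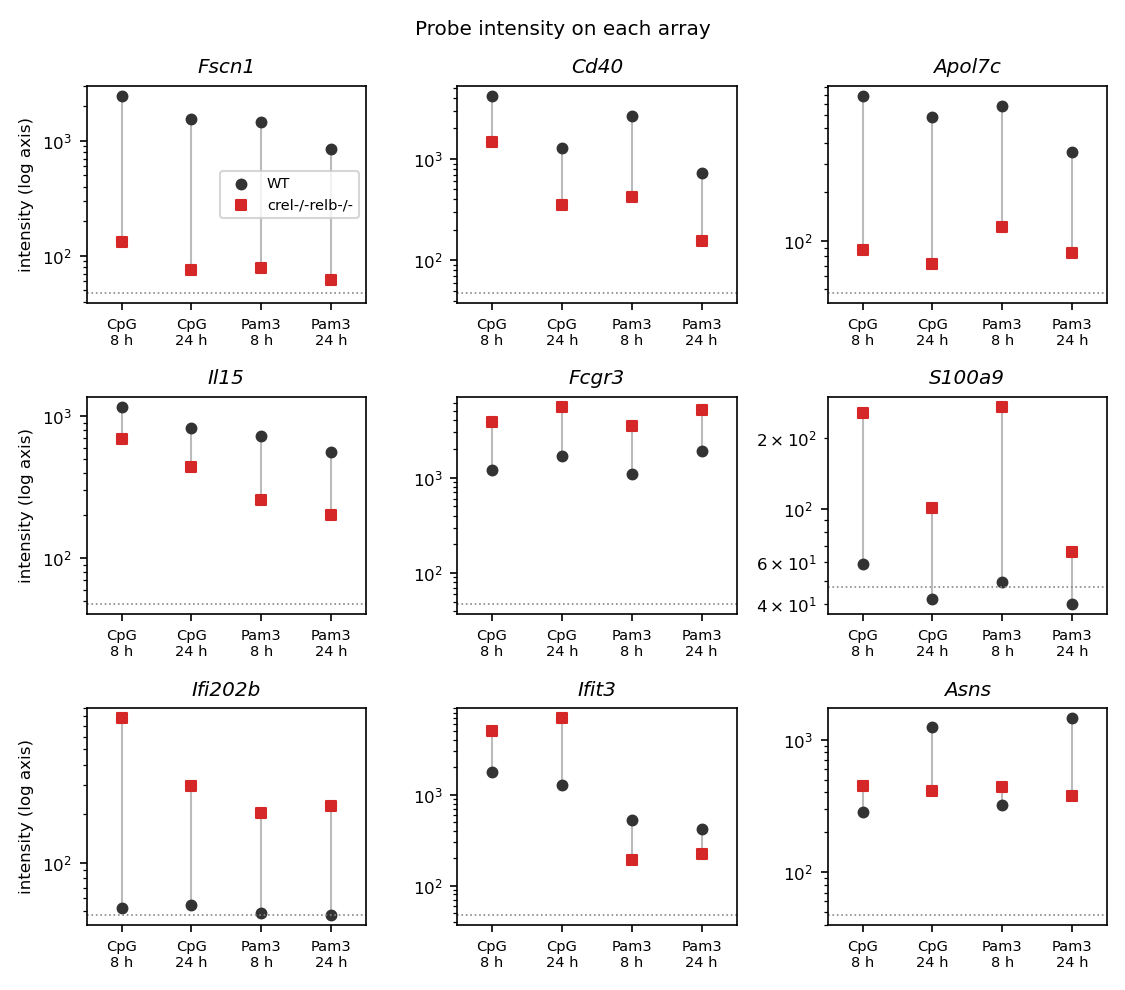
Intensity of 9 genes on each of the 8 late arrays, on log axes, with WT as black circles and crel-/-relb-/- as red squares joined within each condition; the dotted line is the median of all values, 47.3. Fscn1, Cd40, Apol7c and Il15 are lower and Fcgr3, S100a9 and Ifi202b higher in 4 of 4 conditions, while Ifit3 turns with the agent and Asns with the time.

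Of the list of 25 tested maturation and costimulation genes, 11 fell, Relb itself among them, and 1 rose, with a median of -0.49 against 0.002 over all genes, and the counts were the same without CpG 24 h. The called share was 48.0%, beside 4.32% of all genes. This list, like those below, was chosen with earlier results of these data known, so its share may be raised by that choice. Besides those above, Il4i1, a secreted amino acid oxidase, fell by 1.07 (log2 difference -1.07 ± 0.15, adjusted p = 0.00246), with WT at 1158 to 2172 and crel-/-relb-/- at 480.1 to 952. Serpinb6b, a serine protease inhibitor, fell from 773, 798, 915 and 819 to 261, 433, 294 and 328 (log2 difference -1.35 ± 0.14, adjusted p = 0.000448). The immune cell receptors Slamf1 and Slamf7 and the inhibitory ligand Cd200 also fell, at -0.80, -0.76 and -0.84, and each lost its call when some other condition was left out. Ccr7, the receptor that guides mature dendritic cells to lymph nodes, missed the threshold at -0.54 ± 0.17 (adjusted p = 0.104), but was called without CpG 24 h at -0.77 (adjusted p = 0.00395). Tnfsf4, the ligand of OX40 on T cells, was the member that rose, by 0.60 ± 0.12 (adjusted p = 0.0162), and it too was called in 1 of the 4 repeats. Cd274, which encodes the inhibitory ligand PD-L1, stood at 0.02 ± 0.17 (adjusted p = 0.963).

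Several of the other genes named for the largest falls have no place in that list. Clu, which encodes the secreted chaperone clusterin, was at 343, 401, 351 and 372 in WT and 59, 91.6, 62.6 and 70.5 in crel-/-relb-/- cells, 5.24-fold lower with no overlap (log2 difference -2.39 ± 0.12, adjusted p = 2.47e-06). Ctsc, the lysosomal protease that activates granule serine proteases, read 2681, 2602, 2494 and 2022 against 1038, 774, 747 and 602 (log2 difference -1.65 ± 0.11, adjusted p = 2.83e-05). Stat4, the transcription factor that answers interleukin-12, read 299, 397, 270.3 and 394 against 104, 156, 79 and 119. The Stat4 groups did not overlap (log2 difference -1.59 ± 0.12, adjusted p = 4.86e-05). A second Stat4 probe gave -0.98 and was called, and 1 more, which lay between 39.5 and 50 on the 8 arrays, gave -0.04 and was not. Sema7a, a membrane-anchored semaphorin, and Ptx3, a soluble pattern recognition protein of the pentraxin family, differed by -1.31 and -1.31. Grasp, a scaffold protein of receptor trafficking, fell by 3.13-fold, with WT at 161 to 189 and crel-/-relb-/- at 47.4 to 75.2. With the mean of a gene's probes in place of the brightest, the log2 difference of Grasp was -0.977 against -1.646. For Sema7a it was -0.879 against -1.313. Ogfrl1, Tcaf2 and the nucleosome-binding protein gene Hmgn3 fell by 3.59-, 3.09- and 2.56-fold.

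Pus10, a pseudouridine synthase gene, also fell, from 202, 176, 189 and 176 to 68.2, 75, 64.2 and 68 (log2 difference -1.43 ± 0.11, adjusted p = 4.86e-05), and was at 204, 174, 189 and 200 in relb-/- cells. With the mean of the Pus10 probes in place of the brightest the log2 difference was -0.931. In the RefSeq annotation it is the gene next to Rel, and of 8 tested genes within 8 on either side of Rel it was the 1 called. Of 9 tested around Relb, 3 were called: Clasrp, next to it, at -0.79 (adjusted p = 0.00424), Apoc2 at -0.43 and Nectin2 at -0.86. What part the position beside a targeted gene has in these falls was not tested.

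**Figure D3:**
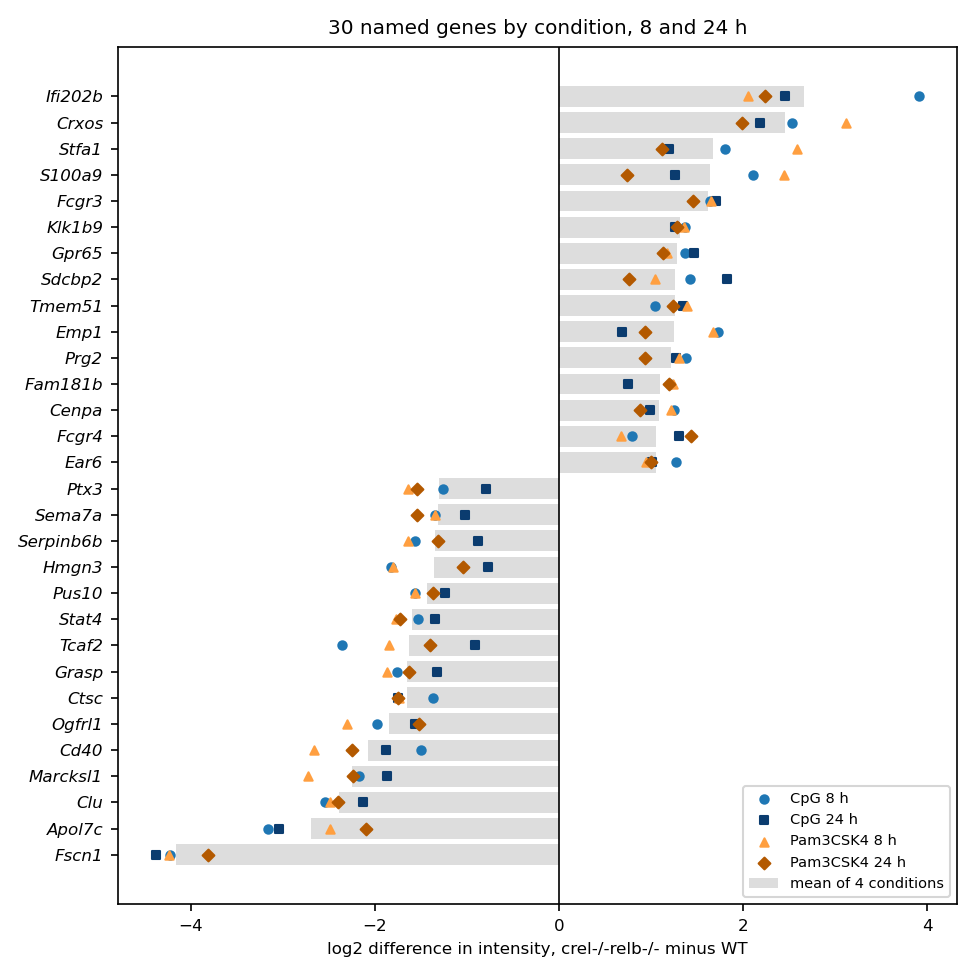
Log2 difference of crel-/-relb-/- minus WT cells for the 15 genes with the largest rise and the 15 with the largest fall among called genes of constant sign, with 1 symbol per condition and a grey bar for the mean of 4. All 4 symbols lie on the same side of 0 for every gene by the rule that chose them, and the spread is widest for Ifi202b at CpG 8 h.

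All 30 genes shown in the plot of named genes were also called without CpG 24 h, with adjusted p up to 0.00771. Even so, the groups overlapped over the 4 conditions for Prg2, Fcgr4, Cd40 and Ptx3. The 30 were chosen for large differences of constant sign, so separation of the groups in the rest is largely built into that choice. How many of all tested genes have separate groups was not counted. Over the 3 conditions at 0 and 1 h, on arrays that took no part in choosing them, all 30 differed in the same direction.

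Cytokine genes fell in part. Of 26 tested in limma, 6 fell and 0 rose (1 higher and 11 lower at an unadjusted p under 0.05), with a median of -0.05, and 8 fell without CpG 24 h. The called share was 23.1%, beside 4.32% of all genes. Il15, a growth factor for natural killer and memory T cells, was at 1164, 821, 724 and 559.6 in WT and 695, 435, 257 and 201 in crel-/-relb-/- cells. It was lower in each condition (log2 difference -1.16 ± 0.15, adjusted p = 0.00177) and stayed called whichever condition was left out. Tnf, which encodes the inflammatory cytokine TNF, read 4097, 1006, 4953 and 2276 in WT and 2541, 674, 1703 and 862 in crel-/-relb-/- cells. The genotypes overlapped across conditions, and the difference within them was -1.05 ± 0.16 (adjusted p = 0.00492). Il1b, which encodes interleukin-1 beta, read 5589.9, 1019, 11043 and 6025 against 2633, 837, 4058 and 1852, and its difference was least at CpG 24 h, -0.28, and greatest at Pam3CSK4 24 h, -1.70 (log2 difference -1.13 ± 0.19, adjusted p = 0.00712). Il6 fell by 0.83 (log2 difference -0.83 ± 0.20, adjusted p = 0.0404), but was not called when any 1 condition was left out. Without CpG 24 h it was -0.80 (adjusted p = 0.0833). Ebi3, a subunit of interleukins 27 and 35, fell by 0.72 (log2 difference -0.72 ± 0.15, adjusted p = 0.0206). Csf2, which encodes GM-CSF, fell by 0.45 near the median of all values. Il12a, the p35 subunit of interleukin-12, was not called at -0.60 ± 0.16 (adjusted p = 0.0639), and Il23a was called without CpG 24 h, at -0.36 (adjusted p = 0.0496).

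Chemokine genes moved in both directions. Of 19 tested, 4 fell and 2 rose (31.6% called, beside 4.32% of all genes). Without CpG 24 h the same 4 fell and 3 rose, Ccl6, Cxcl1 and Cxcl3, where 5.2% of all genes were called. Ccl22, a ligand of CCR4, was at 910.1, 463, 616 and 245 in WT and 349.5, 173, 305 and 103 in crel-/-relb-/- cells (log2 difference -1.27 ± 0.12, adjusted p = 0.000205). Cx3cl1, fractalkine, read 396, 309, 355 and 238 against 195, 127, 160.1 and 114, with no overlap (log2 difference -1.13 ± 0.11, adjusted p = 0.000307). The pair of neutrophil-attracting chemokines Cxcl2 and Cxcl1 went opposite ways. Cxcl2 was at 1528, 489, 3330 and 1574 in WT and 945, 300.3, 1453 and 712 in crel-/-relb-/- cells, lower in 4 of 4 conditions (log2 difference -0.93 ± 0.13, adjusted p = 0.00235). Cxcl1 was at 988, 304, 2777 and 1582 in WT and 1502, 559.6, 4301 and 2410.5 in crel-/-relb-/- cells, higher in 4 of 4 (log2 difference 0.68 ± 0.11, adjusted p = 0.00593), and lost its call in 1 of the 4 repeats. In relb-/- cells Cxcl1 was higher still, at 3622, 2075, 8775 and 8051. Cxcl5, of the same family, rose by 0.65 ± 0.15 (adjusted p = 0.0368) but was not called without CpG 24 h (adjusted p = 0.0610), and Cxcl9, a ligand of CXCR3, fell by 0.56, on WT values of only 51.4 to 87.2. Ccl17, the other CCR4 ligand, was not called at 0.63 ± 0.16 (adjusted p = 0.0602).

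The promoters of some of these genes hold a match to the NF-kB consensus motif, and they are shown because NF-kB subunits are what the crel-/-relb-/- cells lack. The windows are 100 bases of the 250 before the gene's start in RefSeq, build GRCm38.p6, 5′ to 3′ on the gene's strand, with each match on either strand in capitals. They lie at chr5:90903772-90903871 (plus strand) for Cxcl2, chr5:90891144-90891243 (plus strand) for Cxcl1, chr5:30013014-30013113 (plus strand) for Il6, chr17:55952523-55952622 (plus strand) for Ebi3 and chr15:101224073-101224172 (plus strand) for Grasp.
Cxcl2: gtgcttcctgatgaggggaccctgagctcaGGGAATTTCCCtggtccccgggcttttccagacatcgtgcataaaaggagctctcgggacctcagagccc
Cxcl1: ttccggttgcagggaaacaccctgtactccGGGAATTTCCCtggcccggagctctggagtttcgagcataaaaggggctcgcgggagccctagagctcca
Il6: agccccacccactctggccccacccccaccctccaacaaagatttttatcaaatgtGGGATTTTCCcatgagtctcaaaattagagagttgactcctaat
Ebi3: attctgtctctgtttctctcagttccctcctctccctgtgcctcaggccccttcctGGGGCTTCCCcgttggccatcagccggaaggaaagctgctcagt
Grasp: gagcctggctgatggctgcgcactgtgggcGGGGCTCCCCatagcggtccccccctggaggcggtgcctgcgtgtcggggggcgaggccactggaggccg
Cxcl2, which fell, and Cxcl1, which rose, hold the same capital letters, read on both strands. Over the whole 250 bases a match was found in 17 of 191 lower genes with a promoter in the table (8.9%), in 8 of 159 higher genes (5.03%), in 467 of 8620 tested genes (5.42%) and in 4.46% of all 27025 genes of the table. A match is a description of the letters and does not show a bound factor.

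Genes that carry signals downstream of cytokines and Toll-like receptors fell in a few cases. Of 18 tested NF-kB subunits, inhibitors and kinases, 3 fell (16.7%, beside 2.39% of all genes), namely Rel, Relb and Traf1. Rel and Relb are the targeted genes, so their place in this count is no result about the list. Traf1, an adaptor of TNF receptors, read 706, 377, 812 and 409 in WT and 550.3, 202, 482 and 212 in crel-/-relb-/- cells (log2 difference -0.74 ± 0.13, adjusted p = 0.00986). Without CpG 24 h the 3 were Rel, Traf1 and Nfkbia, which encodes the inhibitor IkB-alpha. Of 15 tested JAK-STAT and SOCS genes, 3 fell: Stat4, Socs3 and Irf1. Socs3, a feedback inhibitor of cytokine receptors, was at 1331, 561, 1402 and 932 against 668, 436, 744 and 388 (log2 difference -0.88 ± 0.15, adjusted p = 0.00704). Irf1, a transcription factor of the interferon response, was at 2460.1, 2493, 1793 and 1620.3 against 2005, 1593, 727 and 699 (log2 difference -0.86 ± 0.16, adjusted p = 0.0146), and its difference was smaller with CpG (-0.30 and -0.65) than with Pam3CSK4 (-1.30 and -1.21), a gap that was not called (0.79 ± 0.24, adjusted p = 0.756) with a 95% interval from 0.26 to 1.31. Of 20 Toll-like receptors and adaptors tested, 0 were called in limma (2 higher and 1 lower at an unadjusted p under 0.05). Without CpG 24 h Tlr13 rose and Cd14 fell, where 5.2% of all genes were called. Of 19 survival genes 1 fell, Birc2, which encodes the ubiquitin ligase cIAP1 (-0.80 ± 0.12, adjusted p = 0.00424), with WT at 570 to 663 and crel-/-relb-/- at 318 to 431. That share, 5.26%, is near the 4.32% of all genes called in either direction. Without CpG 24 h Bcl2a1d fell as well.

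Among 26 inflammatory enzymes and effectors, 5 fell and 2 rose (26.9% called, beside 4.32% of all genes). Without CpG 24 h 6 fell and 3 rose, where 5.2% of all genes were called. Saa3, an acute-phase protein, was at 1235, 1675, 2219 and 4293 in WT and 406, 947, 866 and 1806 in crel-/-relb-/- cells, lower in every condition (log2 difference -1.26 ± 0.13, adjusted p = 0.000514). Arg1, which encodes the arginine-degrading enzyme arginase 1, rose by 0.60 ± 0.12 (adjusted p = 0.0173), from 2614, 4630.3, 1680.4 and 2252 to 3417, 7126, 2256 and 4448. Nos2 and Ptgs2, the inducible nitric oxide synthase and cyclooxygenase, were not called at 0.16 and -0.15. Of 24 adhesion and cytoskeleton genes 5 fell and 1 rose, where 4.32% of all genes were called in either direction. Vcam1, an adhesion molecule for leukocytes, fell from 193, 86.8, 153 and 79.7 to 75, 40.6, 58 and 43.3 (log2 difference -1.18 ± 0.11, adjusted p = 0.000198), and all 4 crel-/-relb-/- values lay below the WT values.

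The genes that rose most include receptors for antibody and genes of granulocytes. Fcgr3, which encodes an activating receptor for IgG, was at 1215, 1688, 1093 and 1880.2 in WT and 3787, 5509, 3442 and 5149 in crel-/-relb-/- cells. Each crel-/-relb-/- value lay above all WT values, 3.06-fold higher on average (log2 difference 1.61 ± 0.10, adjusted p = 1.9e-05), and the difference was nearly the same in each condition (1.64, 1.71, 1.65 and 1.45). Fcgr4, another activating IgG receptor, was at 455, 1164, 229 and 393 against 790.5, 2878, 366 and 1065. It was higher in 4 of 4 conditions (log2 difference 1.05 ± 0.15, adjusted p = 0.00255). Fcer1g, the signalling chain these receptors share, fell from 8794, 9590.1, 8296 and 12545 to 5468, 6571, 4777 and 7448 (log2 difference -0.69 ± 0.09, adjusted p = 0.0014), again without overlap. Of the 8 Fc receptor genes and adaptors tested 2 thus rose and 1 fell (37.5% called, beside 4.32% of all genes). Fcgr1, the high-affinity receptor, and Fcgr2b, the inhibitory one, were not called at -0.07 and -0.22. The Fcgr3 promoter also holds a match to the NF-kB consensus, in the window at chr1:171059486-171059585 (minus strand), shown because Fcgr3 rose:
Fcgr3: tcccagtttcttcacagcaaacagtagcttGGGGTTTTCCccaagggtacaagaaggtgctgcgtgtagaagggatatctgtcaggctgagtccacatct

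Ifi202b, an interferon-inducible gene of the p200 family of DNA-binding proteins, had the largest rise among the called genes. It read 52.2, 54.6, 48.6 and 47.7 in WT, near the median of all values, and 783, 299, 201 and 225 in crel-/-relb-/- cells. Its rise was 2.66 ± 0.24 (adjusted p = 0.000198), or 2.73 (adjusted p = 0.00166) without CpG 24 h, and relb-/- cells read 43.4, 45.6, 43.8 and 45.6. Aim2, a DNA sensor of the same family, rose by 0.48 ± 0.10 (adjusted p = 0.0218), and 2 of 5 tested members of the family rose in all (40.0%, beside 1.93% of all genes). Crxos, an opposite-strand gene of Crx, read 60.4, 52.8, 52.3 and 55.3 in WT, 263, 155, 233 and 129 in relb-/- and 348, 241, 453 and 220 in crel-/-relb-/- cells, so both deficient genotypes lay above WT (log2 difference 2.46 ± 0.16, adjusted p = 2.62e-05).

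Other genes among the 15 largest rises were Gpr65, a proton-sensing receptor, at 325, 311, 363 and 377 in WT and 840.4, 857, 817 and 823 in crel-/-relb-/- cells (log2 difference 1.28 ± 0.12, adjusted p = 0.000198), and Cenpa, the histone variant of centromeres, at 693, 717, 809 and 653 against 1652, 1419.6, 1883 and 1202 (log2 difference 1.08 ± 0.12, adjusted p = 0.000514). Neither overlapped between the genotypes. Klk1b9, a kallikrein serine protease, rose 2.49-fold, the membrane protein gene Tmem51 2.39-fold, the epithelial membrane protein gene Emp1 2.38-fold, the syntenin gene Sdcbp2 2.4-fold and Fam181b 2.14-fold. These are sizes of the brightest probe. With the mean of a gene's probes the log2 difference of Sdcbp2 was 0.547 against 1.263, and that of Klk1b9 1.126 against 1.317.

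Alongside these genes, markers of other cells were measured. Of 16 tested neutrophil markers 5 rose and 1 fell (37.5% called, beside 4.32% of all genes). S100a9, a subunit of the calcium-binding protein calprotectin, was at 59, 42.2, 49.4 and 40 in WT and 253, 101, 269 and 66.5 in crel-/-relb-/- cells (log2 difference 1.63 ± 0.22, adjusted p = 0.00235). S100a8, the other calprotectin subunit, was at 904, 1729.7, 1939 and 4072 against 2277, 3107, 3711 and 7015 (log2 difference 0.97 ± 0.12, adjusted p = 0.00111), and Stfa1, a cysteine protease inhibitor of neutrophils, was at 69.7, 46.8, 61.4 and 54.4 against 242, 108, 369 and 118 (log2 difference 1.68 ± 0.20, adjusted p = 0.00123). Within each condition all 3 were higher, and for S100a8 the genotypes overlapped over the conditions. Lcn2, the iron-trapping lipocalin, fell by 0.50 but was not called without CpG 24 h (adjusted p = 0.0507), where the list had 4 higher and 0 lower. The summed intensity of the list, which Lcn2 and S100a8 lead, ran from 23177 to 44046 in WT and from 27624 to 46648 in crel-/-relb-/- cells, with Ctsg, 1 of its 19 members that have a probe, at or below the median on all 8 arrays.

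Of 7 tested eosinophil markers 4 rose and 0 fell (57.1% called, beside 4.32% of all genes), with the same counts without CpG 24 h. Prg2, which encodes the major basic protein of eosinophil granules, was at 182, 52, 182 and 55.8 in WT and 473, 125, 449 and 107 in crel-/-relb-/- cells, higher within each condition and lower at 24 h than at 8 h in both genotypes (log2 difference 1.22 ± 0.12, adjusted p = 0.000205). Ear6, an eosinophil ribonuclease, was at 109, 81.7, 118 and 74.4 against 263, 164, 226 and 148 (log2 difference 1.05 ± 0.11, adjusted p = 0.000422). The list's summed intensity ran from 12560 to 16678 in WT and from 16491 to 20822 in crel-/-relb-/- cells. Prg2 and Ear6 read at most 473 and 263, so other members carry most of that sum. Ccr3, the eotaxin receptor and 1 of the 9 members with a probe, was at or below the median on all 8 arrays. The Ear genes are closely similar copies, so a probe may read more than 1 of them.

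Of 11 tested markers of T and natural killer cells, 5 fell and 1 rose (54.5% called, beside 4.32% of all genes). The counts were the same without CpG 24 h. Cd3g and Cd3d, chains of the T cell receptor complex, are given in turn. Cd3g was at 153, 104, 132 and 116 in WT and 69.6, 49.2, 73.4 and 49.1 in crel-/-relb-/- cells. Cd3d was at 118, 102, 113 and 101 in WT and 57.6, 55.1, 60.5 and 49.2 in crel-/-relb-/- cells. Both fell without overlap, with differences of -1.07 ± 0.10 (adjusted p = 0.0002) and -0.97 ± 0.09 (adjusted p = 0.000198), and relb-/- minus WT was -1.17 (adjusted p = 0.000479) and -1.18 (adjusted p = 3.28e-06). Thy1, which other cells also express, rose by 0.58 ± 0.13 (adjusted p = 0.0286). Of the 17 members with a probe, 6 (Cd4, Cd8a, Ncr1, Gzma, Gzmb and Il2rb) were at or below the median on all 8 arrays, and the summed intensity was 977 to 1629 in WT and 875 to 1736 in crel-/-relb-/- cells.

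Macrophage and monocyte markers rose in 2 cases and fell in 1 of 11 tested (27.3% called, beside 4.32% of all genes). Without CpG 24 h 4 rose, with Mrc1 and Trem2 in addition, and 1 fell, where 5.2% of all genes were called. Adgre1, which encodes F4/80, rose by 0.53 ± 0.10 (adjusted p = 0.0155) and Mertk, a receptor for dying cells, by 0.80 ± 0.13 (adjusted p = 0.0074), while Clu fell. The list summed to 19911 to 27833 in WT and 24102 to 31676 in crel-/-relb-/- cells, with Cd163, Apoe and Ccr2 of its 14 members with a probe at or below the median on all 8 arrays. Of 11 tested markers of conventional dendritic cells 2 rose and 1 fell (27.3% called), with the same counts without CpG 24 h. Clec10a, a lectin, rose by 0.72 ± 0.13 (adjusted p = 0.0146) and Cd24a, a surface sialoglycoprotein, by 0.50 ± 0.09 (adjusted p = 0.0113), and Irf8, a transcription factor of the lineage, fell by 0.77 (log2 difference -0.77 ± 0.13, adjusted p = 0.00771), with WT at 256 to 349.5 and crel-/-relb-/- at 140.1 to 193. In these bulk samples fewer cells of a type and less RNA per cell cannot be told apart. What part the makeup of the cultures has in the differences above was not tested.

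Of 16 tested MHC class II genes 2 fell (12.5%, against 2.39% of all genes), H2-DMa and H2-DMb2, which encode chains of the peptide editor H2-M, by 0.46 (log2 difference -0.46 ± 0.10, adjusted p = 0.0317) and 0.78 (log2 difference -0.78 ± 0.10, adjusted p = 0.00171). Without CpG 24 h both were called again, and H2-Eb1 rose. Of 20 MHC class I and peptide loading genes 0 were called in limma (2 higher and 6 lower at an unadjusted p under 0.05). In the fit without CpG 24 h 4 of these 20 fell, where 2.87% of all genes did. By condition the median of that list was -0.005 and 0.202 with CpG at 8 and 24 h, and -0.364 and -0.209 with Pam3CSK4. Among metabolic genes, 2 of 18 in the list of cholesterol genes rose, Insig1 and Stard4, with a list median of 0.24. In glycolysis and hypoxia 2 of 20 rose, Pgk1 and Egln3, with a list median of 0.19. Of all genes 1.93% rose. Without CpG 24 h Msmo1 and Mvd were also called higher among the cholesterol genes, and Aldoc in glycolysis. In that fit 2.33% of all genes were called higher. In oxidative phosphorylation 1 of 24 was called, Atp5a1, a share of 4.17% that is near the 4.32% of all genes called in either direction. Atp5a1 lost its call in each of the 4 repeats without 1 condition. Without CpG 24 h 4 other members of this list rose, Sdhb, Cox5a, Cox7a2 and Cox7b, where 2.33% of all genes did. Among 27 cell cycle genes Pcna, the sliding clamp of DNA replication, rose and Ccnd2, cyclin D2, and Tyms, thymidylate synthase, fell (11.1% called, beside 4.32% of all genes). Ccnd2 was at 3773, 2203, 2759.7 and 709 in WT and 3043, 604, 1100.2 and 355 in crel-/-relb-/- cells (log2 difference -1.13 ± 0.20, adjusted p = 0.0104). Over all lists 83 genes were called, of which 75 stayed called without CpG 24 h, 52 without CpG 8 h, 52 without Pam3CSK4 8 h and 38 without Pam3CSK4 24 h, and 34 in all of these repeats. The 8 that lost their call without CpG 24 h were Atp5a1, Cxcl5, Gbp3, Il6, Itgb7, Lcn2, Ltf and Relb. Outside the 30 genes of largest change, those 34 are Rel, Il15, Ccl22, Cx3cl1, Cxcl2, Cxcl9, Il4i1, Fcer1g, Saa3, Vcam1, Samsn1, H2-DMb2, S100a8, Cd3d, Cd3g, Nkg7 and Trat1, and every other called list member named here lost its call in at least 1 repeat.

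The difference between the genotypes depended on the agent for interferon-stimulated genes. In the test of the difference with CpG minus the difference with Pam3CSK4, 14 genes were called (0.132% of those tested), 13 with a higher and 1 with a lower difference under CpG. Ifit3, an antiviral protein with tetratricopeptide repeats, was at 1772, 1297, 530.3 and 426 in WT and 4984, 7031, 191 and 223 in crel-/-relb-/- cells. The crel-/-relb-/- value was above WT with CpG at both times and below WT with Pam3CSK4 at both times, and the agent difference was 3.17 ± 0.32 (adjusted p = 0.00191). Rsad2, the antiviral enzyme viperin, read 4517, 2376, 1556 and 1155 against 10988, 8824, 1124 and 765, with an agent difference of 2.12 ± 0.25 (adjusted p = 0.00344). Isg15, a ubiquitin-like modifier, read 1022, 545, 553 and 272 against 1591, 1581, 183 and 149, and turned in the same way (2.32 ± 0.34, adjusted p = 0.017).

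Cmpk2, a nucleotide kinase gene, and Slfn1, of the schlafen family, completed the 5 largest, at 2.25 ± 0.25 (adjusted p = 0.0025) and 2.24 ± 0.38 (adjusted p = 0.0422). Slfn1 was level between the genotypes at CpG 8 h (-0.01). Irf7, the transcription factor that amplifies type I interferon, differed between agents by 1.73 ± 0.26 (adjusted p = 0.0204), and the guanylate-binding protein gene Gbp5 by 1.60 ± 0.25 (adjusted p = 0.0204). The others called were Ifi214, Ifit2, Isg20, Mx2, Oasl1 and Usp18. The gene with a lower difference under CpG was Csta3, a cystatin (-1.13 ± 0.20, adjusted p = 0.0468). Without CpG 24 h 11 genes were called, 8 of them among the 14, and Isg15 (1.87, adjusted p = 0.0609) and Csta3 (-1.19, adjusted p = 0.214) lost their calls, while Ifit3 (2.70, adjusted p = 0.00454), Cmpk2, Slfn1 and Rsad2 kept theirs.

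Of the 28 tested antiviral interferon-stimulated genes, 10 were called for the agent difference, and 20 were higher in crel-/-relb-/- cells in both CpG conditions and lower in both Pam3CSK4 conditions, a pattern seen in 4.34% of all genes tested. The list's median by condition was 0.63 and 0.86 with CpG at 8 and 24 h and -0.51 and -0.27 with Pam3CSK4. In relb-/- minus WT cells, averaged over the 4 conditions, the median was 0.947, and 0.644 for the interferon-inducible GTPases. Values above WT in these lists were therefore not particular to crel-/-relb-/- cells. Whether the relb-/- difference depends on the agent was not tested. Averaged over the 4 conditions, 0 of the 28 were called in limma (3 higher and 1 lower at an unadjusted p under 0.05). Of 10 interferon-inducible GTPases, Gbp2 and Gbp3 fell on average, at -0.72 ± 0.14 (adjusted p = 0.0148) and -1.08 ± 0.23 (adjusted p = 0.0291). Without CpG 24 h Gbp3 lost its call (adjusted p = 0.0600), and the 2 called were Gbp2 and Gbp7. Ifnb1, which encodes interferon-beta, was at 46.5, 41.6, 40.2 and 40.9 in WT and 103, 56.9, 38.8 and 34.1 in crel-/-relb-/- cells, above the median of all values on the 2 CpG arrays of crel-/-relb-/- cells and on no other of the 8. Its agent difference missed the threshold (0.96 ± 0.19, adjusted p = 0.157). The 95% interval of that difference ran from 0.54 to 1.38, and the smallest agent difference called was 1.11, of Isg20, so the missing call does not show that the agents gave the same difference.

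**Figure D4:**
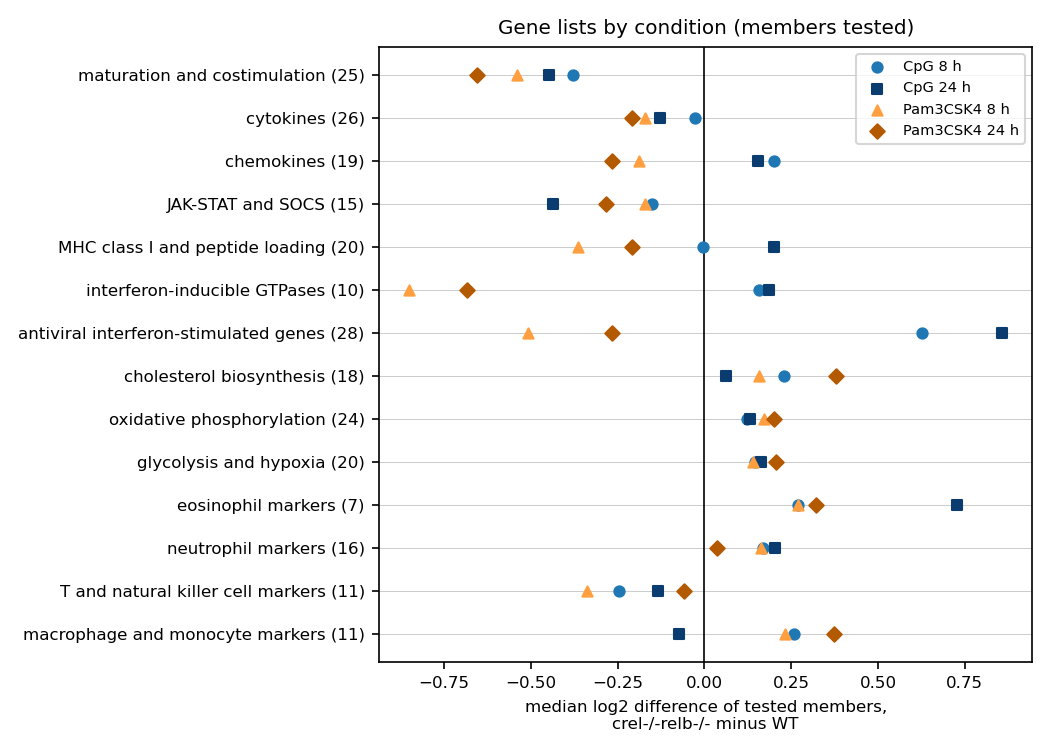
Median log2 difference of crel-/-relb-/- minus WT cells over the tested members of 14 gene lists, by condition, with the number of tested members in brackets. The antiviral genes lie right of 0 with CpG (0.63 and 0.86) and left with Pam3CSK4 (-0.51 and -0.27), and the maturation genes left of 0 in all 4 conditions.

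The promoters of Ifit3, Isg15 and Rsad2 are shown with matches to the core of the interferon-stimulated response element, the bases GAAA, then any 2 bases, then GAAA again, read on either strand, in capitals. They are windows of 100 bases within the 250 before the start, from RefSeq build GRCm38.p6 and on the gene's strand, at chr19:34583343-34583442 (plus strand), chr4:156200827-156200926 (minus strand) and chr12:26456503-26456602 (minus strand).
Ifit3: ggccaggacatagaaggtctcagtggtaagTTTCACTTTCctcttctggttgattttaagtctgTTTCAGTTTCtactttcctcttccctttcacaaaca
Isg15: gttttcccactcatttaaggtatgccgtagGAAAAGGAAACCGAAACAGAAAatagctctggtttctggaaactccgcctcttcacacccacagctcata
Rsad2: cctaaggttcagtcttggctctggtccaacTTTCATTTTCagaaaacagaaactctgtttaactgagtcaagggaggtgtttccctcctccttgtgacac
In Isg15 3 overlapping matches form the capital stretch. Over the 250 bases a match was found in 5 of the 12 agent-dependent genes with a promoter in the table (41.7%), 3.55% of tested genes and 3.46% of all genes. It was found in 6.81% of the lower and 5.03% of the higher genes of the late comparison.

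Time changed the difference for 3 genes (0.0283%), tested as the difference at 24 h minus that at 8 h. Asns, asparagine synthetase, was at 284, 1256, 319 and 1460.2 in WT and 445, 412, 438 and 377 in crel-/-relb-/- cells. In WT cells it was far higher at 24 h than at 8 h with both agents, and in crel-/-relb-/- cells it was level, so that the genotypes crossed (-2.34 ± 0.24, adjusted p = 0.0125). Relb-/- cells read 458, 457, 462 and 508. Chac1, a glutathione-degrading enzyme, crossed in the same way, from 59.5, 225, 60.4 and 255 in WT to 88.9, 95.8, 95 and 74.4 (-2.12 ± 0.23, adjusted p = 0.0125). Both are known targets of the stress-activated transcription factor ATF4. For Atf4 and Ddit3 of the same response the time differences were -1.01 ± 0.23 (adjusted p = 0.656) and -0.81 ± 0.39 (adjusted p = 0.742), with 95% intervals from -1.51 to -0.50 and from -1.68 to 0.06. The smallest time difference called was 2.06, of Fah, so no difference of the size of these 2 was called for any gene, and the missing calls do not show that the difference is the same at both times. Fah, the last enzyme of tyrosine breakdown, went the other way, at 551, 232, 399.7 and 202 in WT and 233, 502, 269 and 463 in crel-/-relb-/- cells (2.06 ± 0.27, adjusted p = 0.041), and was not called without CpG 24 h (adjusted p = 0.188).

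The late differences were set against those on the 6 arrays at 0 and 1 h, which share no array with them. Over all genes tested the late and early mean differences had a Pearson correlation of 0.643, across genes, which are not independent replicates. Of the 457 genes called late, 424 had the same sign early and 33 the opposite. Of the 52 called with at least 2-fold, 31 were also at least 2-fold different early. Fscn1 was already low before and at 1 h, at 46.5, 49.9 and 45.3 in crel-/-relb-/- cells against 530.2, 753 and 848 in WT (unstimulated, CpG 1 h and Pam3CSK4 1 h). Cd40 differed less early, by -0.86 against -2.07 late, a gap that was not called (-1.21 ± 0.23, adjusted p = 0.0881). Tnf was at 0.37 early and -1.05 late, which was not called either (-1.42 ± 0.29, adjusted p = 0.118).

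**Figure D5:**
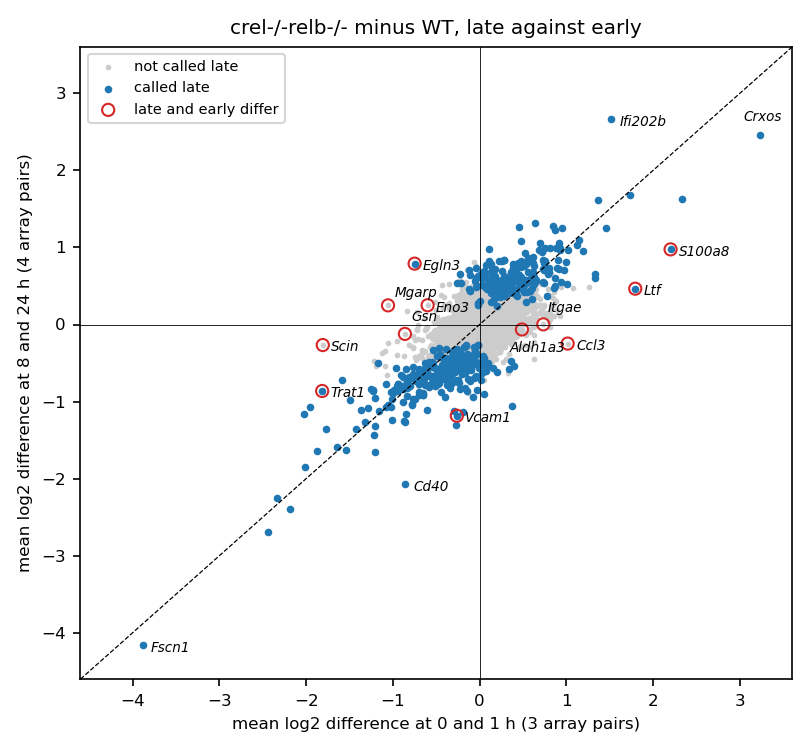
Mean log2 difference of crel-/-relb-/- minus WT cells at 0 and 1 h (x axis, 3 array pairs) and at 8 and 24 h (y axis, 4 array pairs) for 10587 genes; the dashed line marks equal differences. Blue points were called late, and red rings mark the 12 genes whose late and early differences differed, such as Egln3 at -0.75 early and 0.79 late.

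Late and early differences differed for 12 genes (0.113%), 6 in each direction. All 12 were also called without CpG 24 h, but of the 10 genes named by the largest differences Mgarp and Ltf alone kept their calls in all 12 alternatives. S100a8 lost its call in 1 of these 12, Trat1 in 2, Egln3 in 3, Eno3 in 5, Ccl3 and Scin in 7 and Vcam1 in 9, and Itgae in 3 of 11. Scin and Gsn encode the actin-severing proteins scinderin and gelsolin. Scin was -1.81 early and -0.27 late (1.54 ± 0.26, adjusted p = 0.0374). Gsn was -0.86 early and -0.12 late (0.74 ± 0.09, adjusted p = 0.00525). Egln3, a prolyl hydroxylase that senses oxygen, was lower in crel-/-relb-/- cells early and higher late (1.54 ± 0.22, adjusted p = 0.012), with late values of 258, 296, 266 and 362 in WT and 464, 817, 347 and 498 in crel-/-relb-/- cells. Mgarp, a mitochondrial protein gene, and Eno3, an enolase, moved in the same direction, by 1.30 ± 0.14 (adjusted p = 0.00258) and 0.85 ± 0.14 (adjusted p = 0.0353). For Trat1, a T cell receptor adaptor, the difference shrank from -1.81 to -0.86 (0.95 ± 0.12, adjusted p = 0.00525), and its late crel-/-relb-/- values, 38.8 to 41.7, lay below the median of all values.

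In the other direction, Ltf, the iron-binding protein lactoferrin of neutrophil granules, was 1.79 early and 0.46 late (-1.33 ± 0.15, adjusted p = 0.00258), and S100a8 was 2.20 and 0.97 (-1.23 ± 0.15, adjusted p = 0.00518). Ccl3, a chemokine for monocytes, was higher in crel-/-relb-/- cells early, at 2386, 1507 and 4449 against 1039.8, 720.5 and 2590, and not called late (-1.26 ± 0.21, adjusted p = 0.0374). Vcam1 was at -0.26 early and -1.18 late (-0.92 ± 0.16, adjusted p = 0.048), with the call lost in 5 of the 7 repeats without 1 array pair, under cyclic loess, with log2(intensity + 16), under a stricter filter on dim probes and without the intensity trend. Itgae, the integrin CD103, and Aldh1a3, a retinaldehyde dehydrogenase, were 0.73 and 0.49 early and 0.00 and -0.06 late. The count fell to 4 without CpG 1 h or without Pam3CSK4 1 h and to 6 without the unstimulated pair, and rose to 42 without CpG 24 h.

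The crel-/-relb-/- cells were then set against relb-/- cells, which lack RelB alone, in the same 4 conditions. There 536 genes were higher (5.06%) and 489 lower (4.62%) in crel-/-relb-/- cells. Without CpG 24 h 420 were higher and 373 lower. The comparisons with WT and with relb-/- cells share the crel-/-relb-/- arrays, so their values are given side by side with no measure of overlap. Fscn1 was at 1379, 1356, 776 and 941 in relb-/- cells, -3.71 ± 0.16 (adjusted p = 1.13e-08) in crel-/-relb-/- minus relb-/- cells, and relb-/- minus WT was -0.46 (adjusted p = 0.155). For Marcksl1 relb-/- minus WT was likewise not called at -0.38 (adjusted p = 0.239), and crel-/-relb-/- minus relb-/- was -1.87 ± 0.16 (adjusted p = 6.84e-06). Stat4, Ctsc and Grasp showed this arrangement too, with differences from relb-/- cells of -1.40, -1.36 and -1.21.

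For Apol7c and Cd40 the 2 deficient genotypes lay on opposite sides of WT. Apol7c was at 1437, 1816, 1538 and 1538 in relb-/- cells, above every WT value, with relb-/- minus WT at 1.45 (adjusted p = 0.0004) and crel-/-relb-/- minus relb-/- at -4.14 ± 0.18 (adjusted p = 1.13e-08). Cd40 was at 5845, 4267, 3884 and 3446 in relb-/- cells, with relb-/- minus WT at 1.24 (adjusted p = 0.0278) and crel-/-relb-/- minus relb-/- at -3.32 ± 0.29 (adjusted p = 7.27e-06). Lad1, an epithelial anchoring filament protein gene, had the same order, at 1.13 (adjusted p = 0.000157) and -1.92 ± 0.13 (adjusted p = 7.26e-07). Ifnb1 was at 167, 487, 150.2 and 279 in relb-/- cells, with relb-/- minus WT at 2.52 (adjusted p = 0.000239) and crel-/-relb-/- minus relb-/- at -2.19 ± 0.30 (adjusted p = 0.000363).

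Clu, Ogfrl1, Tcaf2 and Hmgn3 were lower than WT in both deficient genotypes. Clu was at 88.6, 179, 85.9 and 146 in relb-/- cells, with relb-/- minus WT at -1.62 (adjusted p = 1.28e-05) and crel-/-relb-/- minus relb-/- at -0.77 ± 0.14 (adjusted p = 0.00262), so it was lower again without both subunits. Tcaf2 and Hmgn3 were not called between the deficient genotypes, at -0.41 ± 0.17 (adjusted p = 0.17) and -0.41 ± 0.19 (adjusted p = 0.209). Il4i1 was also low in both, at 906, 587, 761 and 474 in relb-/- cells, and not called between them (0.19 ± 0.13, adjusted p = 0.407).

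Among the genes higher in crel-/-relb-/- cells, Fcgr3 was not called between relb-/- and WT cells, with -0.13 (adjusted p = 0.6) for relb-/- minus WT and 1.75 ± 0.11 (adjusted p = 7.26e-07) for crel-/-relb-/- minus relb-/-. Ifi202b was 2.85 ± 0.25 (adjusted p = 8.07e-06) against relb-/- cells, and Fam181b 1.52 ± 0.11 (adjusted p = 2.37e-06). Tnfrsf11b, the decoy receptor osteoprotegerin, was at 60.5, 65.4, 52.8 and 63.3 in relb-/- and 275, 152, 165 and 119 in crel-/-relb-/- cells (1.49 ± 0.18, adjusted p = 0.00016). C1qc, a subunit of complement C1q, was at 135, 209, 95.6 and 108 in relb-/- cells, below 397, 470, 294 and 305 in crel-/-relb-/- cells (1.46 ± 0.11, adjusted p = 3.7e-06) and 391, 525, 299 and 236 in WT cells. Gpr65 was raised in both deficient genotypes and not called between them (0.21 ± 0.14, adjusted p = 0.398). By list, crel-/-relb-/- cells were lower than relb-/- cells in 16 of 25 maturation genes and 8 of 28 antiviral genes, and higher in 10 of 18 cholesterol genes, 8 of 11 macrophage markers and 6 of 16 MHC class II genes. Over all genes tested 4.62% were lower and 5.06% higher.

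Genes that respond late to stimulation were taken from the 7 relb-/- arrays alone, which take no part in the comparison of crel-/-relb-/- with WT cells. In relb-/- cells 232 genes were called and at least 2-fold higher at 8 and 24 h than at 0 and 1 h (2.19%), and 166 were at least 2-fold lower (1.57%). Of the 232 late-induced genes, 20 were higher (8.62%) and 27 lower (11.6%) without both subunits than in WT cells, beside 1.93% and 2.39% of all genes tested, with a median difference of 0.05. By condition the median was 0.006 and 0.198 with CpG at 8 and 24 h and -0.068 and -0.002 with Pam3CSK4. Of the 166 late-repressed genes, 28 were higher (16.9%) and 10 lower (6.02%), with a median of 0.08. Without CpG 24 h the counts were 20 and 35 of the induced and 32 and 12 of the repressed genes.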

How the data were processed

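The labels give 1 Illumina bead array of biotin-labelled cRNA for each genotype and condition, and samples were grouped by these labels alone. The values are the authors' deposited normalized intensities on a linear scale, per the file headers. How they were normalized is not stated in the sources used here, but array medians lay between 47.1 and 47.4. The unnormalized signals were left out, since the 21 columns of that deposited table carry names that match no sample. No array pair held identical values (0 of all pairs).

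The log2 of each intensity was taken with no pseudocount or further normalization. Gene names came from the platform's annotation, with symbols updated by Entrez identifier to RefSeq (23962 of 25697 probes; 1719 have no name here). A probe was tested when the 3rd highest of its 21 values exceeded the median of all values, 47.3, and the probe of highest mean stood for its gene, leaving 10587 of 16593 genes (63.8%). Of 2775 genes with several passing probes, 1 (Pi4k2b) had probes called in opposite directions.

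Tests used limma 3.58.1 in R 4.3.3 (lmFit and eBayes with an intensity trend, two-sided), with condition as a block. The late against early fit of the 7 relb-/- arrays, which chose the late-induced and late-repressed genes, had no such block. Agent, time and period differences were interactions with genotype, and the comparison with relb-/- cells used the 12 late arrays. The condition block pairs the genotypes, as the comparison is defined within conditions. Members and gene lists (33 lists, 550 of 622 genes with a probe) were chosen with earlier results of these data known. Genes named are the 15 largest in each direction among those called with the same sign in 4 of 4 conditions, the 5 largest in each direction of the other comparisons, list members, and Rel and Relb. Gsn and Aldh1a3 and further agent-dependent genes are named because they complete a count, and were chosen after their values were seen.

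The fits were tested on simulated data with known changes. Alternatives covered the filter, the scaling, the model and each array pair left out.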

Additional observations from a re-analysis of the deposited data

Results flagged for a closer look

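In 2 of the 30 named genes the difference in 1 condition lay far from the other 3. For Fam181b the differences were 1.20, 0.75, 1.23 and 1.20, and the gap below the others took 0.921 of the range, at CpG 24 h. For Ctsc they were -1.37, -1.75, -1.74 and -1.75, and the gap took 0.974 of the range, at CpG 8 h. Chance marks about 1 in 20 groups of 4 values in this way.

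The difference between the genotypes changed from early to late times in the test of that change for Scin (1.54), Egln3 (1.54), Mgarp (1.30), Trat1 (0.95) and Eno3 (0.85), and, in the other direction, for Ltf (-1.33), Ccl3 (-1.26), S100a8 (-1.23), Vcam1 (-0.92) and Itgae (-0.73), all on the log2 scale. It differed between the agents for Ifit3 (3.17), Isg15 (2.32), Cmpk2 (2.25), Slfn1 (2.24), Rsad2 (2.12) and Csta3 (-1.135), and between 24 h and 8 h for Fah (2.06), Asns (-2.34) and Chac1 (-2.12). The causes of these differences were not tested.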

How the results depend on the processing

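The count of 457 genes became 96 with no condition block, 1078 in a model of all 21 arrays and 743 with array weights, and ranged from 144 to 551 when 1 array pair was left out. The fit with no condition block takes the spread between conditions into the error. With the other scalings, filters and probe rules it stayed between 395 and 480. Of 420 results for the 30 named genes over 14 alternatives, 411 kept their direction and call, 9 lost the call and 0 reversed. The 9 were all with no condition block: S100a9, Klk1b9, Sdcbp2, Prg2, Fam181b, Fcgr4, Cd40, Hmgn3 and Ptx3. The late minus early count of 12 ranged from 4 to 42 with 1 pair left out, and was 6 under a stricter filter on dim probes and 7 without the intensity trend. The count against relb-/- cells, 1025, ranged from 441 to 845 with 1 pair left out. The agent and time repeats without CpG 24 h were chosen after seeing the data. No paired analysis was possible beyond the condition block, because each group holds 1 array and no replicate number pairs arrays. That block pairs the genotypes in every other fit that compares genotypes. At an unadjusted p under 0.05 there were 1890 genes for the late difference, 906 for late minus early, 460 for the agent and 702 for the time. The signal over background limits dim genes, whose differences may be understated, and no detection p-values were used.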

Other observations

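A pair of further members of the adhesion and cytoskeleton list, Samsn1 and Rab27a, and a pair of the list of inflammatory enzymes and effectors, Slc7a2 and Alox5ap, also differed between the genotypes. Samsn1, an adaptor protein of immune cell signalling, was at 3259.8, 2304, 2538 and 2361 in WT and 1475, 1388, 1326 and 1154 in crel-/-relb-/- cells, with no overlap (log2 difference -0.96 ± 0.11, adjusted p = 0.000876). Rab27a, a small GTPase of secretory vesicles, was at 153, 147, 152 and 141 against 71.4, 117, 72.4 and 81.7, also with no overlap (log2 difference -0.82 ± 0.14, adjusted p = 0.00695). Slc7a2, a carrier of arginine and other cationic amino acids, was at 3689, 2129, 4441 and 4596 against 2484, 1889, 2255 and 2249, lower within each condition (log2 difference -0.69 ± 0.14, adjusted p = 0.0225). Alox5ap, the activating protein of leukotriene synthesis, was at 3098, 5058, 3351 and 5695 against 4068, 7749, 4324 and 7237, higher within each condition (log2 difference 0.43 ± 0.09, adjusted p = 0.0289). Samsn1 stayed called whichever condition was left out, while Rab27a, Slc7a2 and Alox5ap lost their calls in at least 1 of these repeats.

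Heat shock and unfolded protein response genes had 0 of 15 tested members called in limma (3 higher and 1 lower at an unadjusted p under 0.05). Of 23 lysosome genes Ctsc was the 1 called, a share of 4.35% that is near the 4.32% of all genes. Without CpG 24 h Ctsh fell as well. Among 5 stromal markers Lox, an enzyme that cross-links collagen, fell, from 125, 346, 318 and 1651 in WT to 70.5, 276, 170.2 and 1064 in crel-/-relb-/- cells (log2 difference -0.67 ± 0.13, adjusted p = 0.0159), a call kept in 1 of the 4 repeats without 1 condition. Markers of B cells and plasma cells (6 tested) and of erythroid cells and megakaryocytes (5 tested) had 0 called members, with 0 and 1 at an unadjusted p under 0.05 in limma. Of 7 plasmacytoid dendritic cell markers 1 fell (14.3%, beside 2.39% of all genes), Cox6a2, a muscle-type cytochrome oxidase subunit. Cox6a2 read 353, 206, 444 and 237 in WT and 242, 153, 232 and 105 in crel-/-relb-/- cells (log2 difference -0.77 ± 0.14, adjusted p = 0.0123). Its call was lost in 2 of the 4 repeats without 1 condition. Without CpG 24 h Pacsin1 of this list rose. Of 3 mast cell and basophil markers and 1 Langerhans marker tested 0 were called, with 1 and 0 at an unadjusted p under 0.05 in limma. Without CpG 24 h the mast cell and basophil marker Cpa3 was called lower. The summed intensity of the B cell list was 271 to 286 in WT and 265 to 339 in crel-/-relb-/- cells.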
